A study of Rattus norvegicus with 17 samples.

Results

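The splicing regulators described here are the SR proteins (Srsf genes) with their relatives Tra2a and Tra2b, the heterogeneous nuclear ribonucleoproteins (Hnrnp genes) and the numbered RNA-binding motif proteins (Rbm genes). They were taken by symbol from the protein-coding entries of a gene count table, as names beginning with Srsf, Rbm and a number or with Hnrnp, or the names Tra2a and Tra2b. This gave 71 entries of 32495 named entries, and 62 of the 71 had enough counts to be tested: 12 of 14 SR and Tra2 genes, 19 of 19 Hnrnp genes and 31 of 38 Rbm entries. The symbols alone decide membership, but the family was put forward because its genes stood higher with chemotherapy than in healthy muscle in these same samples, so its counts in that comparison are a description and support nothing by themselves. RNA came from the gastrocnemius, a calf muscle of the hindlimb, of rats in 3 groups: healthy animals, animals bearing a tumor without chemotherapy, and animals bearing a tumor and given chemotherapy. All animals were on the control diet. The labels name neither the tumor nor the drug, and give no strain, sex, age or time of sampling. After summing a pair of chemotherapy libraries whose counts were nearly the same (libraries 11 and 12, called library 11 from here on), there were 5 healthy, 5 tumor and 6 chemotherapy samples. The labels do not state that each library is a separate animal, so p-values measure the spread between these samples, which may be partly technical.

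Most mammalian transcripts are spliced in more than 1 way, and the choice of exons depends on proteins that bind the nascent RNA. SR proteins carry an arginine- and serine-rich tail, bind exonic sequences and mostly favor inclusion of the exon, while many hnRNPs coat introns and exons and often favor skipping. Several of these proteins regulate their own transcripts through exons that carry a premature stop codon, and skeletal muscle depends on regulated splicing for its long sarcomeric proteins such as titin. A gene-level count pools all transcripts of a gene, productive or not, so isoforms and protein were not measured.

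Library totals ran from 3020821 to 15719080 counts over the 17 deposited libraries. Healthy samples averaged 8986003 counts, tumor samples 7643954 and chemotherapy samples 7584526 (two-sided exact permutation p = 0.595 for tumor and 0.686 for chemotherapy against healthy; adjusted 0.882 for both over 9 such tests). The chemotherapy mean includes the summed library 11, with 19965891 counts. Group medians were 7977064, 6200550 and 4926312.5 in the same order, so most chemotherapy samples were shallower than that mean. Counts on small noncoding RNA genes made up 2.22% ± 1.07 (SD, n = 5) of healthy, 1.32% ± 0.586 (n = 5) of tumor and 0.970% ± 0.272 (n = 6) of chemotherapy libraries. Chemotherapy against healthy gave an exact permutation p of 0.0152, two-sided, and 0.0682 after adjustment. Healthy libraries 1, 3 and 4 had the 3 highest shares, 2.62%, 2.51% and 3.60%. The alignment names carry 1 of 2 suffixes of unknown meaning, MB on healthy libraries 1 to 4 and library 11 and VM on all the rest, so suffix and group overlap heavily. Results that rest on these libraries are given below with and without them.

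With chemotherapy, 21 of the 62 tested splicing regulators rose relative to healthy muscle and 1, Rbm42, fell (edgeR quasi-likelihood test with Benjamini-Hochberg adjustment over 11856 genes, adjusted p below 0.05). Among all 11856 genes the same threshold was passed by 7.30% on the higher and 6.41% on the lower side. Here and below, a rise or fall with chemotherapy sets tumor-bearing animals given chemotherapy against healthy animals, so tumor and drug both differ. Chemotherapy against tumor without chemotherapy called 0 members. The genes that rose were 7 of 12 SR and Tra2 genes, 8 of 19 Hnrnp genes and 6 of 31 Rbm genes. Their increases ran from 0.45 to 1.39 on the log2 scale (1.36-fold to 2.63-fold), and the adjusted p of the 22 called genes lay between 0.0261 and 0.0493. Positive fold changes were found for 44 of 62 members, against 48.8% of all genes. By family these were 11 of 12 SR and Tra2, 15 of 19 Hnrnp and 18 of 31 Rbm genes, the last a share of 58.1%. The median log2 fold change was 0.56 for SR and Tra2 genes, 0.60 for Hnrnp genes and 0.19 for Rbm genes, beside -0.02 for all genes. Just outside the threshold lay Hnrnph2 and Srsf3, both with an adjusted p of 0.0506, and Hnrnph3 with 0.0526, all on the higher side. Next came Rbm4 with 0.0598 and Rbm38 with 0.0622, both on the lower side. Scaling by total counts alone, instead of trimmed means, moved the median of all genes from -0.02 to 0.12 and the split of all called genes from 865 higher and 760 lower to 1669 higher and 348 lower. The members then gave 28 higher and 0 lower, with a median of 0.58. That scaling turned the sign of 2 members in this comparison, Rbm10 and Rbm43, neither of them called. Without healthy libraries 1, 3 and 4, no member was called and the median was 0.22.

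**Figure D1:**
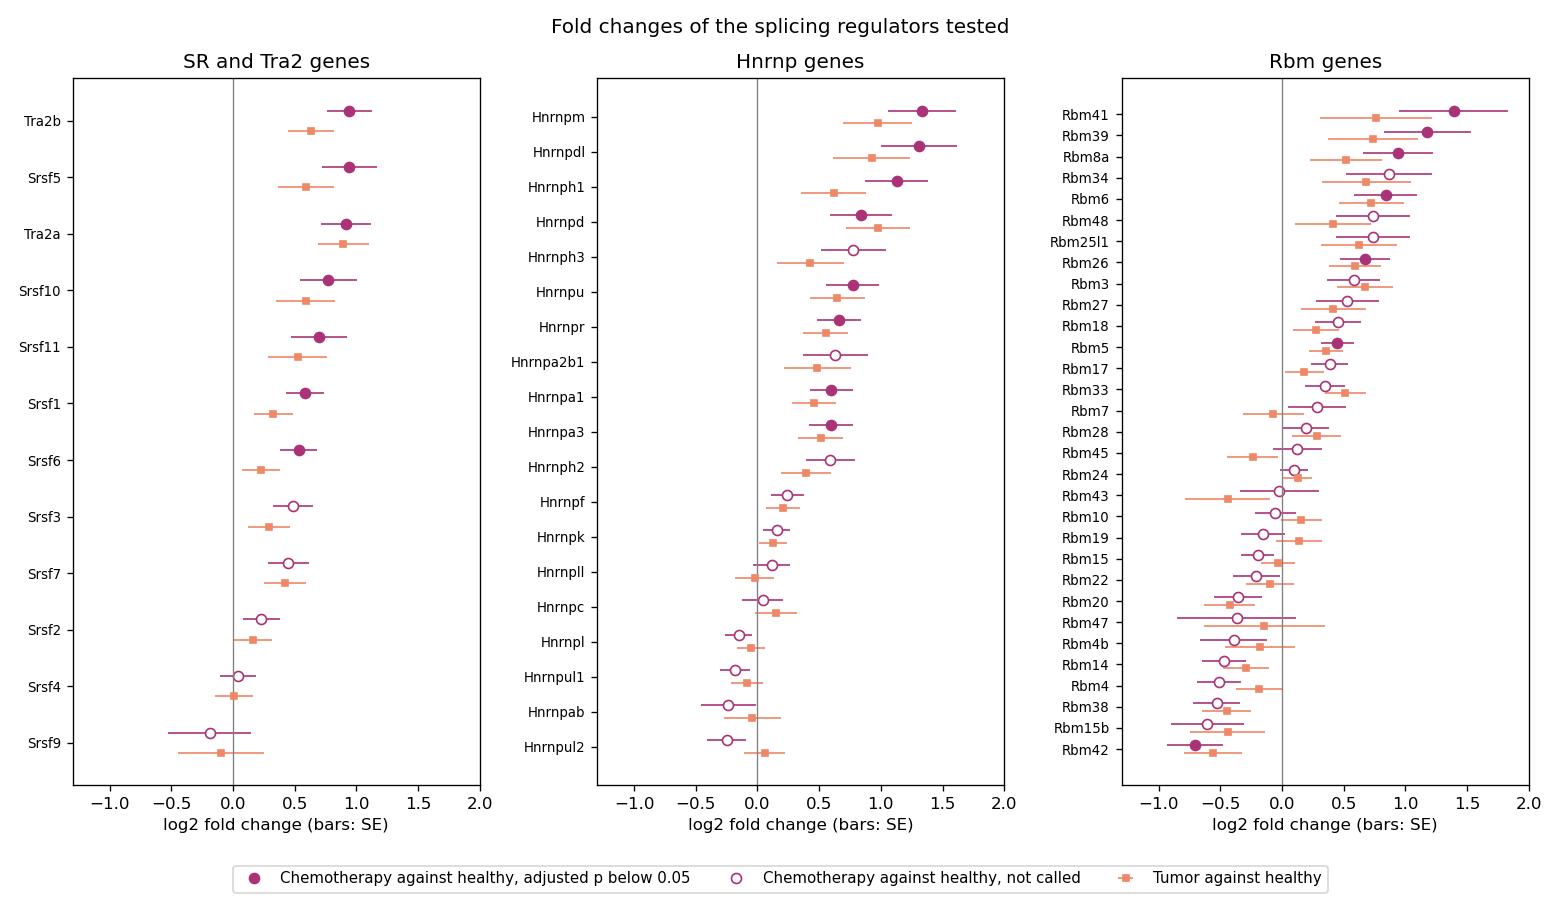
Fold change of each tested splicing regulator (log2, horizontal axis, bars showing the standard error) for chemotherapy against healthy (circles, filled where the adjusted p was below 0.05) and tumor against healthy (squares), in 3 panels for SR and Tra2, Hnrnp and Rbm genes. Filled circles reach from 0.45 to 1.39 on the higher side and 1 gene, Rbm42, is filled on the lower side; both comparisons use the same 5 healthy samples.

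The promoters of 4 members are shown, chosen after the values were seen: Tra2b, Srsf5 and Hnrnpm, which have the smallest p of the SR with Tra2 and the Hnrnp genes among those with a promoter in the table used, and Rbm42, the called gene that fell. Sequences are from RefSeq on GRCr8, run 5′ to 3′ on the gene's strand from 250 bases before to 50 after the start, and capitals mark matches to the motifs searched. Tra2b lies at chr11:92293192-92293491 on the plus strand, Srsf5 at chr6:106336506-106336805 on the plus strand, Hnrnpm at chr7:15178822-15179121 on the minus strand and Rbm42 at chr1:95035931-95036230 on the minus strand.
Tra2b: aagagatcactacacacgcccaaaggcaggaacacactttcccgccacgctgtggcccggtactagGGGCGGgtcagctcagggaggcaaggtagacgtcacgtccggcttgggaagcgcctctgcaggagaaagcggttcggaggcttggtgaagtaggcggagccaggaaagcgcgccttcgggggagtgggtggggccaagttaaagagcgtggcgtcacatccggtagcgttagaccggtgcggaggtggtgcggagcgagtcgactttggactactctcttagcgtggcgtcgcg
Srsf5: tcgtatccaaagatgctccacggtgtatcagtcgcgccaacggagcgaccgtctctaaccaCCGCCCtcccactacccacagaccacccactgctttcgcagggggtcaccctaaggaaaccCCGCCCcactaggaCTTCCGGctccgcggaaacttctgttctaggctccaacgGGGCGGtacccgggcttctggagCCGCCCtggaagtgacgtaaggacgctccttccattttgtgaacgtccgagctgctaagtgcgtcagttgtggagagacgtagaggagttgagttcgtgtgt
Hnrnpm: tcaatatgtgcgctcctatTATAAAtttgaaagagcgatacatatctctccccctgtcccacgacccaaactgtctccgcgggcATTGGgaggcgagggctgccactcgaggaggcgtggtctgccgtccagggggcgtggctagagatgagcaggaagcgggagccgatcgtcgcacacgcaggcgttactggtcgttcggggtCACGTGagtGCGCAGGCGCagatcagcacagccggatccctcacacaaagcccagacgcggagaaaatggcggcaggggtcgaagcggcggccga
Rbm42: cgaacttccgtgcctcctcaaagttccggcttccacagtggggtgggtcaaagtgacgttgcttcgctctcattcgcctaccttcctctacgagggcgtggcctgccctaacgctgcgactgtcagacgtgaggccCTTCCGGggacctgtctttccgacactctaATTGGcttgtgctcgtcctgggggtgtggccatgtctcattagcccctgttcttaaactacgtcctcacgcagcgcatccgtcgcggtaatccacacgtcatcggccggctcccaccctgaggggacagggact
The capitals are 1 GC box in Tra2b, 1 ETS match and 4 GC boxes in Srsf5, 1 match each to the NRF1, CCAAT box, E box and TATA box motifs in Hnrnpm, and 1 ETS and 1 CCAAT box match in Rbm42. Promoters were found for 58 of the 62 tested members. All 4 windows shown are GC-rich, at 62.7%, 59.3%, 61.7% and 60.0% in the order above. Motifs were searched on both strands in the whole 300-base window, allowing overlaps, and the motif list was also chosen with the fold changes known. The CCAAT box (CCAAT) stood in 32 of 58 member promoters, or 55.2%, against 37.8% of the 8945 promoters of tested genes. The NRF1 motif (GCGCA and GCGC with any 1 base between them) stood in 11, or 19.0%, against 10.4%, and the ETS motif (CCGGAAG) in 12, or 20.7%, against 17.9%. For the GC box (GGGCGG) the shares were 58.6% and 63.5%, for the E box (CACGTG) 13.8% and 9.54%, and for the TATA box (TATAAA) 12.1% and 6.74%. The YY1 motif (AAGATGGC) stood in 6.90% against 5.76%, and the CRE (TGACGTCA) in 1.72% against 3.02%. Over all 27457 promoters in the table, the CCAAT box stood in 37.7%, the NRF1 motif in 4.71% and the ETS motif in 9.22%. These shares are descriptions of letters in a window and were not tested.

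Among the SR and Tra2 genes, Tra2b and Tra2a had the smallest p. Both encode SR-like activators that bind purine-rich exonic sequences. Levels are given as CPM, the counts scaled to a common library size with trimmed-mean factors. Tra2b measured 13, 26.9, 18.1, 17.2 and 21.6 CPM in healthy libraries 1 to 5 and 36.0, 32.4, 20.7, 30.0 and 30.3 CPM in tumor libraries 6 to 10. The chemotherapy samples ran from 26.9 to 40.5 CPM, with a median of 39.0. Library 11 held the low value, and the other 5 chemotherapy samples lay above every healthy and every tumor sample. Tra2b was higher with chemotherapy than in healthy muscle by 0.94 ± 0.18 on the log2 scale (SE; edgeR adjusted p = 0.0261).

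Tra2a was between 5.60 and 7.41 CPM in all healthy samples, which measured 6.80, 7.41, 7.26, 5.60 and 6.88 CPM. Tumor samples measured 17, 14.3, 9.5, 13.3 and 8.65 CPM, and chemotherapy samples ran from 9.87 to 17 CPM with a median of 12.3. No healthy sample reached the lowest sample of either tumor-bearing group, while those groups covered much the same range. The log2 difference from healthy was 0.92 ± 0.20 with chemotherapy (SE; edgeR adjusted p = 0.0261) and 0.89 ± 0.21 with tumor alone (edgeR adjusted p = 0.211). Over all genes, 2.02% had chemotherapy samples all above the healthy ones, and among the members these were Tra2a and Hnrnpm.

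Srsf5 measured 41.2, 67.0, 41.0, 37.7 and 59.2 CPM in healthy samples, 98.4, 81.3, 52.7, 91.3 and 45.7 CPM in tumor samples, and 61.3 to 115 CPM (median 99.8) in chemotherapy samples. Its log2 increase with chemotherapy over healthy was 0.94 ± 0.22 (SE; edgeR adjusted p = 0.0271). Healthy library 2 was higher than chemotherapy library 11, so the groups overlapped at that point. Srsf1, the founding SR protein and an activator of exon inclusion, measured 63.8, 62.9, 50.7, 55.6 and 65.4 CPM in healthy samples and 85.7, 88.2, 63.1, 79.7 and 57.3 CPM in tumor samples. With chemotherapy it ran from 61.8 to 104 CPM (median 94.5), a log2 increase of 0.59 ± 0.15 over healthy (SE; edgeR adjusted p = 0.0301). Library 11 was again the lowest chemotherapy sample and lay within the healthy range. Srsf6 rose from 34.8 ± 6.39 CPM in the healthy group (SD, n = 5) to 50.7 ± 7.91 CPM with chemotherapy (n = 6), by 0.53 ± 0.15 on the log2 scale (SE; edgeR adjusted p = 0.0334). Srsf10, which represses splicing when it loses its phosphates, rose by 0.77 ± 0.23, and Srsf11 by 0.70 ± 0.23 (edgeR adjusted p = 0.0379 and 0.0493).

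The other 5 tested SR genes were not called. Srsf3, the smallest SR protein, had a log2 fold change of 0.49 ± 0.16 with chemotherapy against healthy, and Srsf7, an SR protein with a zinc knuckle, of 0.45 ± 0.17 (edgeR adjusted p = 0.0506 and 0.0650). Srsf2, also known as SC35 and long used as a marker of nuclear speckles, had 0.23 ± 0.15, Srsf4 0.04 ± 0.15 and Srsf9 -0.19 ± 0.34. Srsf4 averaged 15.5 ± 1.79 CPM in the healthy group (SD, n = 5), 15.6 ± 2.46 CPM with a tumor (n = 5) and 16 ± 2.20 CPM with chemotherapy (n = 6), with means that differed by less than the spread within any group.

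Hnrnpm showed the largest fold change of the Hnrnp genes with chemotherapy against healthy. It encodes an hnRNP that binds GU-rich sequences. Healthy samples measured 18.7, 41.5, 18.2, 16.1 and 32.4 CPM, tumor samples 65.3, 52.1, 34.5, 64.0 and 30.1 CPM, and chemotherapy samples 41.6 to 82.9 CPM with a median of 67.3. The lowest chemotherapy sample, library 11, was only just above the highest healthy sample, library 2. The log2 increase with chemotherapy was 1.33 ± 0.27 (SE; edgeR adjusted p = 0.0261).

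Hnrnph1, which binds runs of guanine, measured 38.7, 69.7, 44.0, 29.5 and 59.3 CPM in healthy and 97.9, 75.0, 48.8, 102 and 44.3 CPM in tumor samples. With chemotherapy it ran from 65.3 to 129 CPM (median 113), a log2 increase of 1.13 ± 0.26 over healthy (SE; edgeR adjusted p = 0.0261). Hnrnpdl, a relative of Hnrnpd, measured 30.6, 47.5, 34.0, 15.6 and 44.6 CPM in healthy, 88.6, 76.9, 32.6, 87.0 and 40.0 CPM in tumor, and 46.6 to 115 CPM (median 88.3) in chemotherapy samples. Its log2 increase with chemotherapy was 1.31 ± 0.31 (SE; edgeR adjusted p = 0.0271). In both genes, tumor libraries 8 and 10 lay within the healthy range and the other 3 tumor samples above it.

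Hnrnpr measured 13.2, 17.6, 13.8, 9.32 and 17.6 CPM in healthy, 26.6, 19.8, 17.5, 22.5 and 17.5 CPM in tumor, and 17.2 to 25.9 CPM (median 23.2) in chemotherapy samples, with a log2 increase of 0.66 ± 0.18 with chemotherapy (SE; edgeR adjusted p = 0.0308). Hnrnpa1, a widely studied repressor of exon inclusion, measured 31.7, 48.1, 34.0, 29.6 and 42.9 CPM in healthy, 68.7, 56.9, 47.1, 46.7 and 35.1 CPM in tumor, and 42.8 to 62.9 CPM (median 58.8) in chemotherapy samples. It rose by 0.60 ± 0.17 with chemotherapy (SE; edgeR adjusted p = 0.0346). Chemotherapy library 11 lay inside the healthy range for both genes, and the other chemotherapy samples lay above it. Hnrnpa3, a relative of Hnrnpa1, rose by 0.60 ± 0.18, and Hnrnpu, also called scaffold attachment factor A, by 0.77 ± 0.22 (edgeR adjusted p = 0.0382 and 0.0331). Hnrnpd, also called AUF1 and known for binding AU-rich elements of unstable mRNAs, measured 3.59, 9.34, 6.78, 5.33 and 8.35 CPM in healthy, 11.4, 21.8, 9.12, 11.6 and 10.7 CPM in tumor and 8.50 to 13.3 CPM (median 12.7) in chemotherapy samples. On the log2 scale it was higher than in healthy muscle by 0.84 ± 0.25 with chemotherapy (SE, edgeR adjusted p = 0.0387). With tumor alone it was higher by 0.98 ± 0.26 (edgeR adjusted p = 0.211), and chemotherapy against tumor gave -0.14 ± 0.24. The highest Hnrnpd value of all 16 samples was in tumor library 7.

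The remaining 11 Hnrnp genes were not called. Hnrnpa2b1 had a log2 fold change of 0.63 ± 0.26 with chemotherapy against healthy (edgeR adjusted p = 0.0906), Hnrnph2 0.59 ± 0.20 and Hnrnph3 0.78 ± 0.26. Hnrnpf, Hnrnpk, Hnrnpll and Hnrnpc, the last a binder of uridine tracts, had values of 0.24, 0.16, 0.11 and 0.04. Hnrnpl, a binder of CA repeats, had -0.15, Hnrnpul1 -0.18, Hnrnpab -0.24 and Hnrnpul2 -0.25. Hnrnpul2 measured 32.3, 33.2, 30.0, 26.9 and 28.7 CPM in healthy, 29.5, 42.1, 37.6, 22.5 and 24.4 CPM in tumor and 21.3 to 30.4 CPM (median 25.4) in chemotherapy samples, and all 3 groups overlapped.

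**Figure D2:**
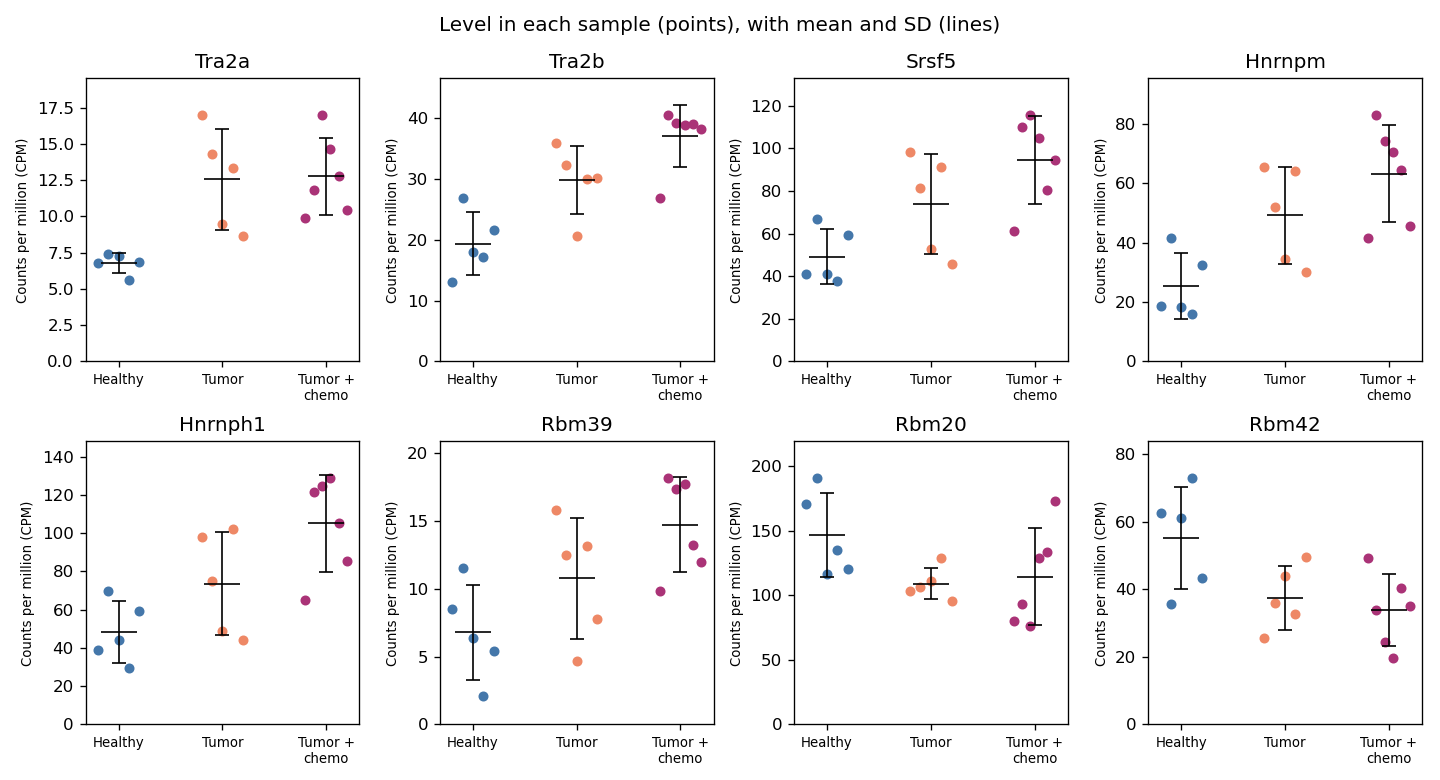
Level of 8 splicing regulators in each sample (points, CPM on linear axes that start at 0), with the group mean and SD (lines), for 5 healthy, 5 tumor and 6 tumor with chemotherapy samples. Tra2a and Hnrnpm have no chemotherapy sample at or below a healthy one, Rbm20 overlaps in part, with 3 of 6 chemotherapy samples below every healthy one, and Rbm42 has a lower mean with chemotherapy; the genes were picked after the values were seen.

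The Rbm genes, which share a type of RNA-binding domain rather than 1 function, were more mixed. Rbm5, a splicing factor that promotes exon skipping in apoptosis genes, measured 52.7, 74.1, 44.9, 49.3 and 52.6 CPM in healthy, 78.0, 70.6, 62.1, 72.9 and 65.9 CPM in tumor, and 61.7 to 81.9 CPM (median 77.6) in chemotherapy samples. Healthy library 2 was far above the other 4 healthy samples, which lay below every tumor and chemotherapy sample. Rbm5 rose by 0.45 ± 0.13 with chemotherapy (SE; edgeR adjusted p = 0.0379). Rbm6, its neighbor in the family, rose by 0.84 ± 0.26 (edgeR adjusted p = 0.0401).

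Rbm39, a U2AF-like splicing factor and transcriptional coactivator, measured 8.50, 11.5, 6.40, 2.09 and 5.40 CPM in healthy, 15.8, 12.5, 4.65, 13.2 and 7.78 CPM in tumor, and 9.87 to 18.1 CPM (median 15.3) in chemotherapy samples. It rose by 1.18 ± 0.35 with chemotherapy (SE; edgeR adjusted p = 0.0384), with library 4 the lowest of the healthy samples and library 11 the lowest of the chemotherapy samples. Rbm26 measured 28.1, 41.7, 22.2, 24.7 and 32.8 CPM in healthy, 56.0, 55.1, 26.5, 48.7 and 37.9 CPM in tumor and 34.7 to 56.1 CPM (median 49.96) in chemotherapy samples, a log2 increase of 0.67 ± 0.20 with chemotherapy (SE; edgeR adjusted p = 0.0385). Rbm8a, a core protein of the exon junction complex that marks spliced mRNA, measured 4.34, 9.06, 4.20, 2.97 and 6.88 CPM in healthy, 11, 10.6, 5.60, 5.56 and 5.02 CPM in tumor and 7.86 to 12.4 CPM (median 9.94) in chemotherapy samples. It rose by 0.94 ± 0.28 with chemotherapy (SE; edgeR adjusted p = 0.0389). Healthy library 2 overlapped the chemotherapy samples in all of these genes. Rbm41, the sixth Rbm gene to rise, had a log2 increase of 1.39 ± 0.44 (edgeR adjusted p = 0.0453) with a wide spread within groups, at 6.53 ± 4.82 CPM (SD, n = 5) in healthy and 16.4 ± 5.75 CPM (n = 6) in chemotherapy samples.

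Rbm42 and Rbm38 were followed sample by sample after their values were seen. Rbm42 measured 62.7, 35.7, 61.1, 72.9 and 43.5 CPM in healthy, 25.6, 35.9, 44.0, 32.6 and 49.6 CPM in tumor and 19.6 to 49.4 CPM (median 34.4) in chemotherapy samples, and fell by 0.70 ± 0.23 on the log2 scale with chemotherapy (SE; edgeR adjusted p = 0.0463). Its high values lay in healthy libraries 1, 3 and 4, while healthy libraries 2 and 5 lay within the range of the other groups. Leaving out healthy library 1, 3 or 4, tumor library 7, or chemotherapy library 13, 14, 15, 16 or 17 ended the call. Rbm38, an RNA-binding target of p53 that affects mRNA stability, measured 112, 78.5, 148, 145 and 80.4 CPM in healthy, 62.6, 73.2, 102, 75.7 and 100.49 CPM in tumor and 62.6 to 104 CPM (median 75.3) in chemotherapy samples. Its log2 fold change of -0.53 ± 0.19 was not called (edgeR adjusted p = 0.0622), and the same 3 healthy libraries held its highest values.

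The Rbm genes best known in striated muscle were not called. Rbm20, which represses exons of titin and is mutated in inherited cardiomyopathy, measured 171, 191, 116, 135 and 121 CPM in healthy, 104, 107, 111, 129 and 95.8 CPM in tumor and 76.7 to 173 CPM (median 111) in chemotherapy samples. The groups overlapped in part, with 3 of 6 chemotherapy and 4 of 5 tumor samples below the lowest healthy sample, and the log2 fold change with chemotherapy was -0.36 ± 0.20 (edgeR adjusted p = 0.190). Rbm24, a muscle-enriched splicing factor needed for sarcomere assembly, measured 102, 122, 102, 85.8 and 112 CPM in healthy, 109, 136, 98.4, 114 and 114 CPM in tumor and 109 to 115 CPM (median 112) in chemotherapy samples; the chemotherapy samples lay within the healthy range. Its log2 fold change was 0.10 ± 0.11 (edgeR adjusted p = 0.555). Rbm3, known for its induction by cold, measured 35.5, 45.9, 39.6, 25.1 and 50.7 CPM in healthy, 58.0, 62, 54.9, 95.1 and 42.5 CPM in tumor and 38.2 to 79.5 CPM (median 56.4) in chemotherapy samples, a log2 fold change of 0.58 ± 0.22 (edgeR adjusted p = 0.0682). Rbm4 and Rbm10, both regulators of alternative exons, had log2 fold changes of -0.51 ± 0.18 and -0.05 ± 0.16 with chemotherapy (edgeR adjusted p = 0.0598 and 0.840).

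Tumor without chemotherapy against healthy called 0 of the 62 members, and 0 of all genes, at an adjusted p below 0.05 with edgeR; the smallest adjusted p of a member was 0.211. At an unadjusted p below 0.05, 19 members were higher and 2 lower, where all genes gave 8.88% higher and 9.12% lower. DESeq2 called 1 member, Tra2a, and 17 genes higher and 23 lower of 11853 in all, and limma-voom called 0 members and 0 genes. The 19 were 6 of 12 SR and Tra2 genes, 8 of 19 Hnrnp genes and 5 of 31 Rbm genes. Positive fold changes were found for 44 of 62 members, against 51.0% of all genes. By family these were 11 of 12 SR and Tra2, 15 of 19 Hnrnp and 18 of 31 Rbm genes. Median log2 fold changes were 0.37 for SR and Tra2, 0.43 for Hnrnp and 0.16 for Rbm genes, beside 0.01 for all genes. Tra2b had a log2 fold change of 0.63 ± 0.18, Hnrnpm of 0.98 ± 0.28, Hnrnpd of 0.98 ± 0.26 and Hnrnpdl of 0.93 ± 0.31. All tumor samples lay above all healthy samples for 2 members, Tra2a and Hnrnpa3, against 0.439% of all genes. This comparison uses the same healthy samples as the comparison with chemotherapy, so the values of both depend on them together. The family was put forward with those healthy samples in view, so its counts here are likewise a description. Scaling by total counts gave 52 positive members, with a median of 0.41 beside 0.13 for all genes. Without healthy library 2, edgeR called 7 members higher, along with 245 genes higher and 259 lower over the whole table of 11995 tested. Without healthy libraries 1, 3 and 4 the median over the members was 0.08 in place of 0.29.

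Chemotherapy against tumor without chemotherapy also called 0 members and 0 of all genes with edgeR, and the smallest adjusted p of a member was 0.778. At an unadjusted p below 0.05, 0 members were higher and 0 lower, beside 1.97% and 3.81% of all genes. DESeq2 called 0 members, with 2 genes higher and 7 lower in all, and limma-voom called 0 members and 0 genes. Positive fold changes were found for 40 of 62 members, against 50.6% of all genes, with medians of 0.18 for SR and Tra2, 0.11 for Hnrnp and 0.07 for Rbm genes. The 40 were 11 of 12 SR and Tra2, 13 of 19 Hnrnp and 16 of 31 Rbm genes. The largest differences relative to their error were those of Srsf6, at 0.31 ± 0.15, Hnrnph1, at 0.51 ± 0.25, and Hnrnpul2, at -0.31 ± 0.16. Srsf6 measured 25.5, 34.3, 33.3, 42.9 and 37.7 CPM in healthy, 42.9, 42.2, 32.7, 48.1 and 38.2 CPM in tumor and 41.4 to 62.6 CPM (median 49.9) in chemotherapy samples, so tumor and chemotherapy samples overlapped.

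Variation from sample to sample was compared among the members. For each gene, the level was set against the mean of the other 61 members over the 16 samples, all on the log2 scale and centered per gene; since all points share libraries and groups, the coefficients are descriptions without a test. Pearson coefficients were above 0.8 for 25 of 62 members: 6 of 12 SR and Tra2, 9 of 19 Hnrnp and 10 of 31 Rbm genes. Hnrnpm, Hnrnpdl, Rbm6 and Hnrnpu each gave 0.97, and 0.94, 0.94, 0.96 and 0.94 after group means were taken out. The opposite pattern, below -0.5, was found for 8 members, 6 Rbm and 2 Hnrnp genes. As shares, 40.3% of members were above 0.8 and 12.9% below -0.5, where the 11794 other genes tested, set against the mean of the members, gave 15.2% and 29.4%. In a principal component analysis of variable genes from the whole table, component 1 took up 48.4% of the variance, and the 7 libraries at its low end (4, 3, 1, 8, 10, 5 and 11) were also the 7 with the lowest mean level of the members. Rbm38 gave -0.93, Rbm42 -0.92, Rbm14, a paraspeckle protein, -0.85, Rbm15b -0.79 and Hnrnpul1 -0.76. Within groups Rbm38 gave -0.93 and Rbm42 -0.87, so these genes varied in the opposite sense to most members among samples of 1 group too.

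**Figure D3:**
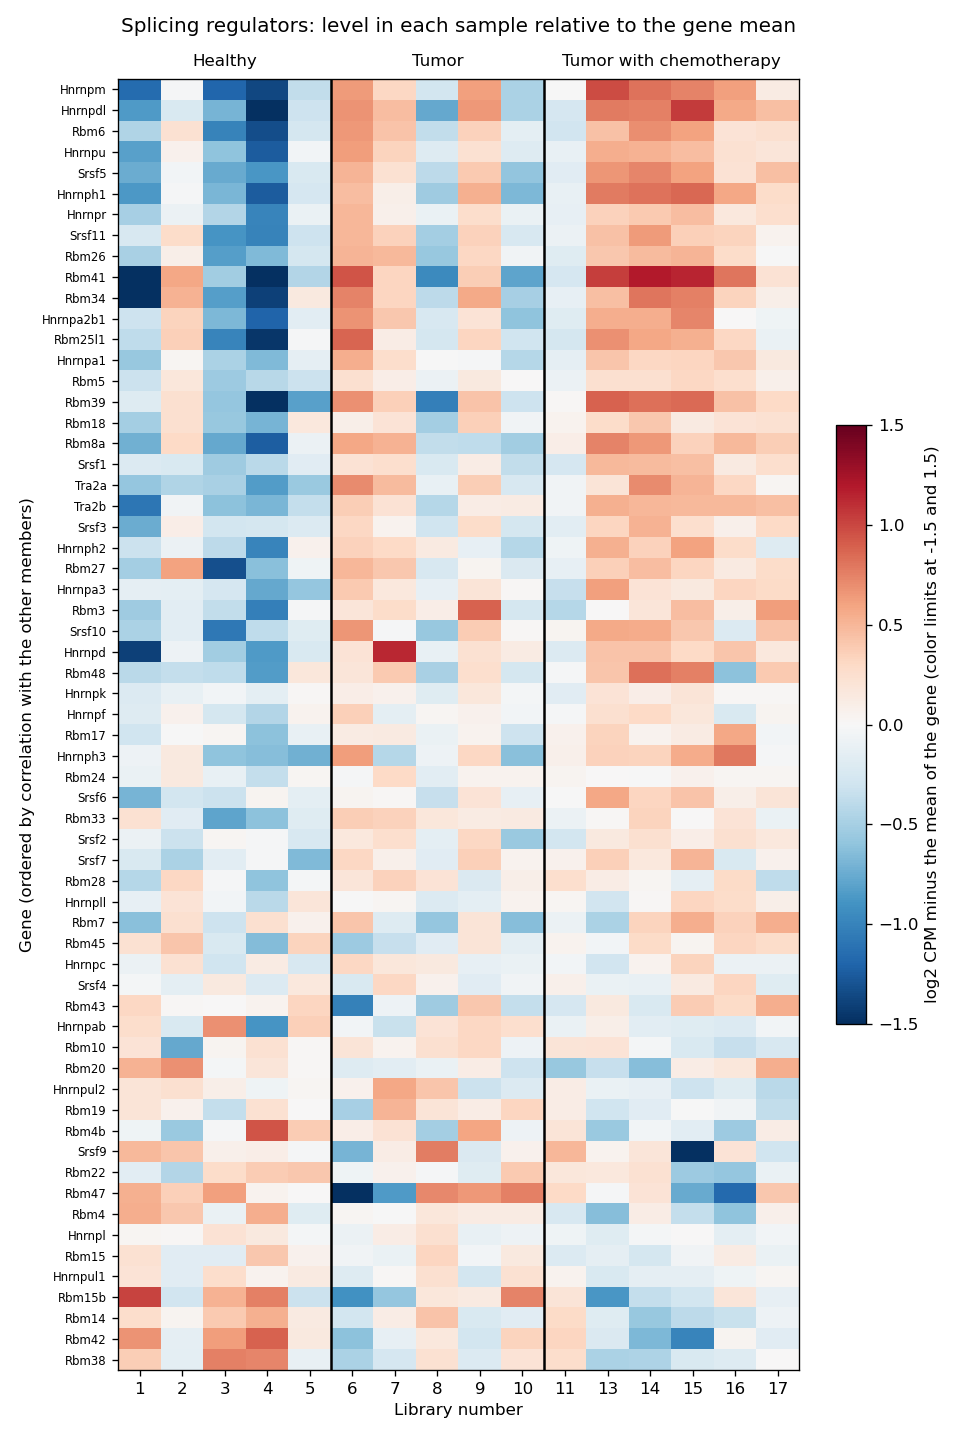
Level of the 62 tested splicing regulators (vertical axis, ordered by their correlation with the other members) in each of the 16 samples (horizontal axis, library number), as log2 CPM centered on the gene's mean, with colors limited at 1.5 either way. Healthy libraries 1, 3 and 4 are blue over the upper genes, chemotherapy libraries 13 to 15 are red, and the bottom genes, Rbm38 and Rbm42, show the reverse.

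The mean over the 62 members of log2 CPM, centered per gene, gives each sample a score. It averaged -0.22 in healthy samples (range -0.46 to 0.03), 0.04 in tumor samples (-0.13 to 0.17) and 0.14 in chemotherapy samples (-0.04 to 0.26), with a pooled SD within groups of 0.15. The members' summed share of all counts averaged 0.189%, 0.241% and 0.260% in the same order. The 7 samples with the highest share of small noncoding RNA counts also had the 7 lowest scores: healthy libraries 4, 1, 3 and 5, tumor libraries 8 and 10, and chemotherapy library 11. Healthy library 2, with a small noncoding share of 0.806%, near those of the chemotherapy libraries, had a score of 0.03, the highest of the healthy samples. The 20 most abundant genes took up 40.9% of the healthy, 36.3% of the tumor and 36.1% of the chemotherapy counts (chemotherapy against healthy, two-sided exact permutation p = 0.0130, adjusted 0.0682 over 9 tests). The part of library composition in the differences between groups was not tested. In bulk muscle, fewer cells of a type and less RNA per cell cannot be told apart.

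**Figure D4:**
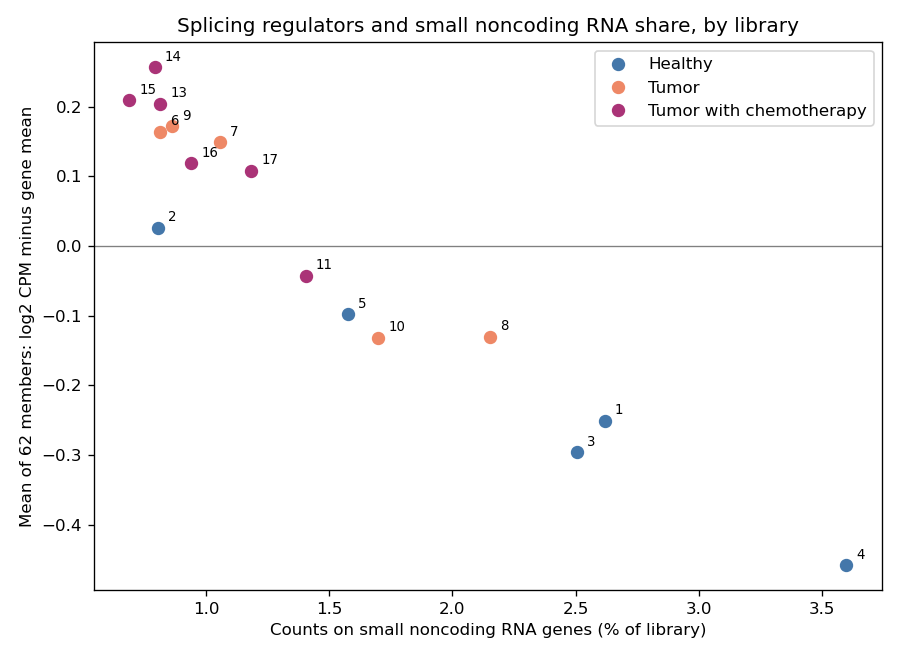
Mean level of the 62 splicing regulators in each sample (vertical axis, log2 CPM minus the gene mean) against the percentage of the library's counts on small noncoding RNA genes (horizontal axis), with points colored by group and labelled by library. Samples with a share above 1.4% all have a score below 0, and healthy library 2 sits beside the tumor and chemotherapy samples on the horizontal axis; the pairing of these measures was chosen after the values were seen.

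The number of members called with chemotherapy against healthy depended on single libraries. Leaving out healthy library 1, 3 or 4, or chemotherapy library 13, 14 or 15, left 0 members called higher, and in those 6 runs no gene of the whole table was called either. Leaving out chemotherapy library 16 left 10 members, with 261 genes called higher and 268 lower in the whole table, and leaving out library 17 left 15, with 577 and 463. Leaving out healthy library 2 gave 30 members, with 2024 genes higher and 1775 lower, so the members' count moved with that of the whole table. Over the 16 such runs the median log2 fold change of the members stayed between 0.37 and 0.48. With the suffix of the alignment names as a term the median was 0.28 with 0 members called, and within the VM libraries alone, where healthy library 5 is the only healthy sample, it was 0.30 with 0 called.

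**Figure D5:**
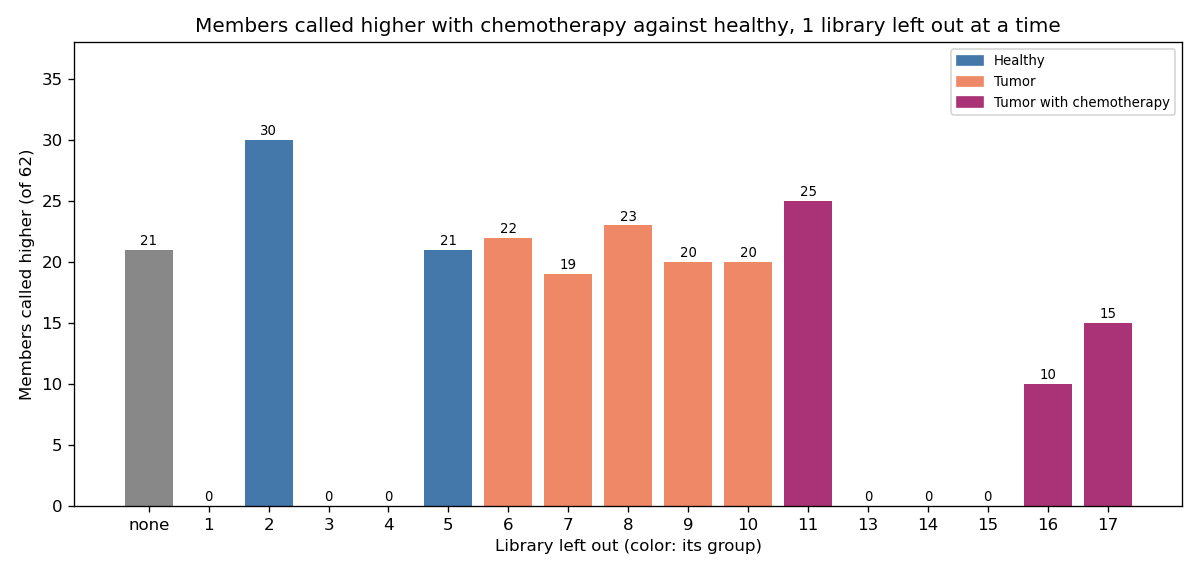
Number of the 62 splicing regulators called higher with chemotherapy against healthy (vertical axis) in the fit of all samples (grey) and with 1 library left out at a time (horizontal axis, bars colored by the group of that library). The count is 0 without library 1, 3, 4, 13, 14 or 15, 21 with all libraries and 30 without library 2.

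Other genes of the splicing pathway, taken from lists chosen by function, are given for chemotherapy against healthy. Over all genes, 7.30% were called higher and 6.41% lower in this comparison. Of the kinases that phosphorylate SR proteins and other spliceosome components, 4 of 9 tested rose and 0 fell, with a median log2 fold change of 0.56. Clk4 rose by 1.32 ± 0.33 and Clk1 by 1.25 ± 0.35, both members of the family that phosphorylates SR proteins in the nucleus (edgeR adjusted p = 0.0290 and 0.0337). Of the nuclear speckle and RS-rich proteins, 8 of 19 rose and 0 fell, with a median of 0.78; Prpf38b rose by 0.98 ± 0.22 and Arglu1 by 1.04 ± 0.24 (edgeR adjusted p = 0.0261 and 0.0271). The core spliceosome, the machinery common to all introns, gave 3 genes that rose and 3 that fell of 37 tested, with a median of -0.01. Both of these counts were near the shares over all genes. Sf3b1, which anchors the branch site, rose by 0.64 ± 0.16, and Prpf8, the central protein of the U5 particle, fell by 0.63 ± 0.15 (edgeR adjusted p = 0.0290 and 0.0276). Among other RNA-binding splicing regulators, 5 of 27 rose and 1 fell, with a median of 0.30; the 2 with the smallest p were Pspc1, a paraspeckle protein, at 0.78 ± 0.18 and Zranb2 at 1.34 ± 0.32 (edgeR adjusted p = 0.0271 for both). Among nonsense-mediated decay and exon junction genes, which degrade transcripts with a premature stop codon, 2 of 15 rose and 0 fell, with a median of 0.00177; these were Upf3b, at 1.66 ± 0.50, and Upf2, at 1.14 ± 0.37 (edgeR adjusted p = 0.0403 and 0.0494). In both other comparisons edgeR called no gene of the whole table, these lists included.

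Markers of the cell types that muscle holds are given beside these counts, for chemotherapy against healthy. The marker lists were also set with earlier results of these data known. The shares called over all genes were 7.30% higher and 6.41% lower. Fiber markers summed to 237111 to 334458 CPM in healthy and 213800 to 249479 CPM in chemotherapy samples, with 0 of 9 called higher and 2 lower (Acta1 and Ckm). Pericyte and smooth muscle markers summed to 321 to 392 CPM in healthy and 195 to 284 CPM in chemotherapy samples, with 4 of 6 called lower, Cspg4 and Notch3 having the smallest p. A positive fold change was found for 1 of these 6, and their median was -0.86. Fibroblast markers gave 3 of 7 lower, with Cd34 and Col3a1 first, and sums of 4670 to 14351 CPM in healthy and 2309 to 10900 CPM in chemotherapy samples. Endothelial markers gave 1 of 8 higher (Emcn) and 1 lower (Tie1), and satellite cell markers 1 of 5 lower (Pax7). Positive fold changes were found for 3 endothelial markers and 1 satellite cell marker, with medians of -0.08 and -0.45. Adipocyte markers gave 1 of 4 called higher (Fabp4), with positive fold changes for all 4, a median log2 fold change of 1.89, and sums of 35.9 to 96.1 CPM in healthy and 84.0 to 331 CPM in chemotherapy samples. EdgeR called none of the 8 macrophage, 5 red blood cell and 2 lymphocyte markers that passed the filter. Of these, 0 macrophage, 0 red blood cell and 1 lymphocyte marker had a positive fold change, with medians of -0.22, -0.88 and 0.30. Among the 7 fibroblast markers 0 were positive, with a median of -0.69. What part these cells have in the values of the splicing regulators was not tested.

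The 9 entries that did not pass the filter on low counts were Srsf8, Rbm31y and both entries named Rbm12, all at 0 in every library, and Srsf12, Rbm46, Rbm12b, Rbm11 and Rbm44. Srsf12, a mainly neuronal SR protein, had 55 counts and Rbm46, a germ-cell gene, 64 counts over all libraries, with 34 for Rbm12b, 14 for Rbm11 and 5 for Rbm44. Several members have near-identical copies or processed pseudogenes, among them Rbm4 and Rbm4b, Hnrnpa1 and Rbm8a, and since the counting method is not given, how reads were shared between copies is uncertain.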

How the data were processed

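Total RNA from gastrocnemius muscle was depleted of ribosomal RNA and sequenced from stranded libraries, per the labels' protocols. The authors deposited a table of raw read counts, 1 column for each of 17 libraries, without normalization. Bowtie2, TopHat2 2.0.10, FastQC 0.11.4, CASAVA 1.9 and Trim Galore 0.4.1 were used, per the submitters' processing notes. Not given in the sources used here are the build, the annotation and the program that counted reads. Of 32883 entries, 388 had no gene name, held 0.102% to 0.373% of the counts and were left out. Per degree of freedom, the chi-square between libraries 11 and 12 was 2.03, against 5.16 for the next closest pair (libraries 13 and 14). If both mates of a read pair were counted, repeat sequencing of 1 RNA would give a value near that of libraries 11 and 12. Whether both were counted is not stated. Counting both would raise the share of even counts, which among counts from 1 to 10 was 50.3% in library 11 and 51.3% in library 12. Libraries 11 and 12 were summed and counted as 1 sample by choice, and whether they hold 1 RNA is not known.

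The test was edgeR 4.0.16 (R 4.3.3, TMM, filterByExpr with a minimum count of 10, robust quasi-likelihood fit, 1 model of 3 group means over 16 samples, 13 residual degrees of freedom). Benjamini-Hochberg adjustment covered 11856 genes, and a gene was called below 0.05. The SE is the log2 fold change over the square root of F. Sample scores use log2 CPM with a prior count of 2. Alternatives were other scalings, filters, DESeq2 1.42.0, limma-voom (limma 3.58.1), 1 surrogate variable (sva 3.50.0), the suffix, and leaving out libraries.

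The members and lists were chosen with earlier results of these data known. All tested SR, Tra2 and Hnrnp genes are named, and Rbm genes if called or among 10 set by name, of which Rbm25 is not analysed here. Values by sample, for the 6 chemotherapy samples as range and median, are given for the 4 smallest p of each family with chemotherapy against healthy, the 3 smallest of the other comparisons and 7 set genes, in all 19; Rbm42 and Rbm38 were added after their values were seen. Of each other list, the 2 genes with the smallest p are named.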

Additional observations from a re-analysis of the deposited data

Results flagged for a closer look

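Of 63 combinations of a named gene and a group, 3 had 1 sample far from the rest of its group; chance gives about 1 in 20. Tra2b was at 26.9 CPM in chemotherapy library 11, with the next lowest sample of that group at 38.2 CPM. Rbm5 was at 74.1 CPM in healthy library 2, with the next highest at 52.7 CPM. Hnrnpd was at 21.8 CPM in tumor library 7, with the next highest at 11.6 CPM.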

How the results depend on the processing

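With chemotherapy against healthy, 21 members were called higher and 1 lower. Without a filter on low counts 13 were higher and 0 lower. With 1 surrogate variable, the suffix as a term, the VM libraries alone, or without healthy libraries 1, 3 and 4, 0 were higher and 0 lower, and the median log2 fold change of 0.45 became 0.0698, 0.28, 0.30 and 0.22 in that order. The cause was not tested. The lower call was also absent (0) with total counts, with only the 2 groups compared and with libraries 11 and 12 as 2 samples. Keeping libraries 11 and 12 apart also left 15 members higher in place of 21, with 627 genes higher and 620 lower over all. The median for chemotherapy against tumor was then 0.036 in place of 0.09. DESeq2 gave 2 members lower with chemotherapy against healthy. Leaving out 1 library at a time gave 0 to 30 higher and 0 to 3 lower. For tumor against healthy, 0 members higher became 1 with DESeq2 and ranged from 0 to 7 with 1 library left out, and the median of 0.29 became 0.0641 with the surrogate variable and 0.0816 without healthy libraries 1, 3 and 4. For chemotherapy against tumor, the counts of members called stayed at 0 in every alternative, but the 40 positive members became 30 with the surrogate variable, where the median went from 0.09 to -0.0044, and 36 without tumor library 8; over all genes the surrogate variable gave 4 calls higher and 4 lower, and DESeq2 2 and 7. The sign turned for Rbm20 among the VM libraries (0.0095), for Rbm24 with the surrogate variable (-0.0698), among the VM libraries (-0.00497) and without healthy libraries 1, 3 and 4 (-0.0611), and for Rbm38 with the surrogate variable (0.0993). Single genes were followed for 27 members in chemotherapy against healthy over 29 alternatives: 499 values kept direction and call, 270 lost the call, 9 gained it and 5 turned. No paired analysis was possible because the groups share no replicate numbers. With 5 or 6 samples a group and calls this close to the threshold, a member that was not called cannot be said to be unchanged.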

Other observations

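Gene size and promoter composition were set against the fold change with chemotherapy over healthy, as descriptions across genes, which are not independent replicates. Over the 62 members, Spearman's rho with the genomic span was -0.02, and over the 58 with a promoter in the table it was -0.21 with the promoter's GC content. Over all protein-coding genes tested the values were 0.11 (10811 genes) and -0.08 (8956 genes). The members' median span was 14.6 kb, against 26.3 kb for those genes.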
